A study of Caenorhabditis elegans with 4 samples.

Results

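The Hox cluster of Caenorhabditis elegans on chromosome III holds lin-39 together with its relatives ceh-13, mab-5 and egl-5, and the intervals called from ChIP of tagged LIN-39 across this cluster are described here. Members were all intervals on chromosome III whose midpoint lay in the 350 kb that begin at 7500000 on WormBase WS220, a window that holds lin-39 and its cluster neighbours and was set with the broad interval in it known. It held 12 intervals of the combined list, 10 of ChIP replicate 1 and 5 of ChIP replicate 2, which is 27 of the 13290 intervals in all 3 lists. The ChIP libraries came from fed L1 larvae (the first larval stage) of hermaphrodites of strain OP18, grown at 20 degrees C. Every animal carried the unc-119(ed3) mutation on chromosome III and the transgene wgIs18, which holds unc-119(+) and a lin-39 gene fused to TY1, EGFP and 3xFLAG tags. An anti-GFP antibody was used for the 2 ChIP libraries. The 2 input libraries of the same strain, made from total chromatin DNA, were not analysed here. The labels give a recombineered plasmid introduced by bombardment and name no mutation of the chromosomal lin-39. No label states the length of worm DNA on the transgene, and reads from the transgene and from the chromosomal lin-39 region cannot be told apart in interval lists.

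Hox genes encode homeodomain transcription factors that give cells their identity along the body axis, and in many animals they lie in clusters. In C. elegans, ceh-13 is related to labial of Drosophila and acts in anterior development, and lin-39 is needed in the mid-body, where it acts in vulval precursor cells and in migrating neuroblasts. The gene mab-5 patterns the posterior body, and egl-5 acts in the tail. The other Hox genes of the worm, nob-1 and php-3, act in posterior development and lie elsewhere on the same chromosome. In the gene table of assembly WBcel235, which was used for order and neighbours only, the order along chromosome III was lin-39, ceh-13, mab-5 and egl-5. No protein-coding gene lay between lin-39 and ceh-13, 37 lay between ceh-13 and mab-5, and 1, cyk-7, lay between mab-5 and egl-5. A further 716 protein-coding genes separated egl-5 from unc-119, and php-3 and nob-1 followed after another 177. No annotation of WS220 was used here, so intervals were not assigned to genes and are named by position.

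Within a list, intervals are ranked by the significance value that the authors deposited, with rank 1 for the smallest value. Whether the value is a p-value or a q-value is not stated in the files, and it is used only within its own list. The lists hold no read numbers, so depth is unknown, and each list is 1 call with no error of its own. Separate cultures are not mentioned for the replicates in the labels, so differences between them may be technical. Of the members, the combined interval of 28411 bp and the replicate intervals that overlap it are called broad, and all others narrow. That gives 1 broad and 11 narrow intervals in the combined list, 2 and 8 in replicate 1, and 2 and 3 in replicate 2.

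**Figure D1:**
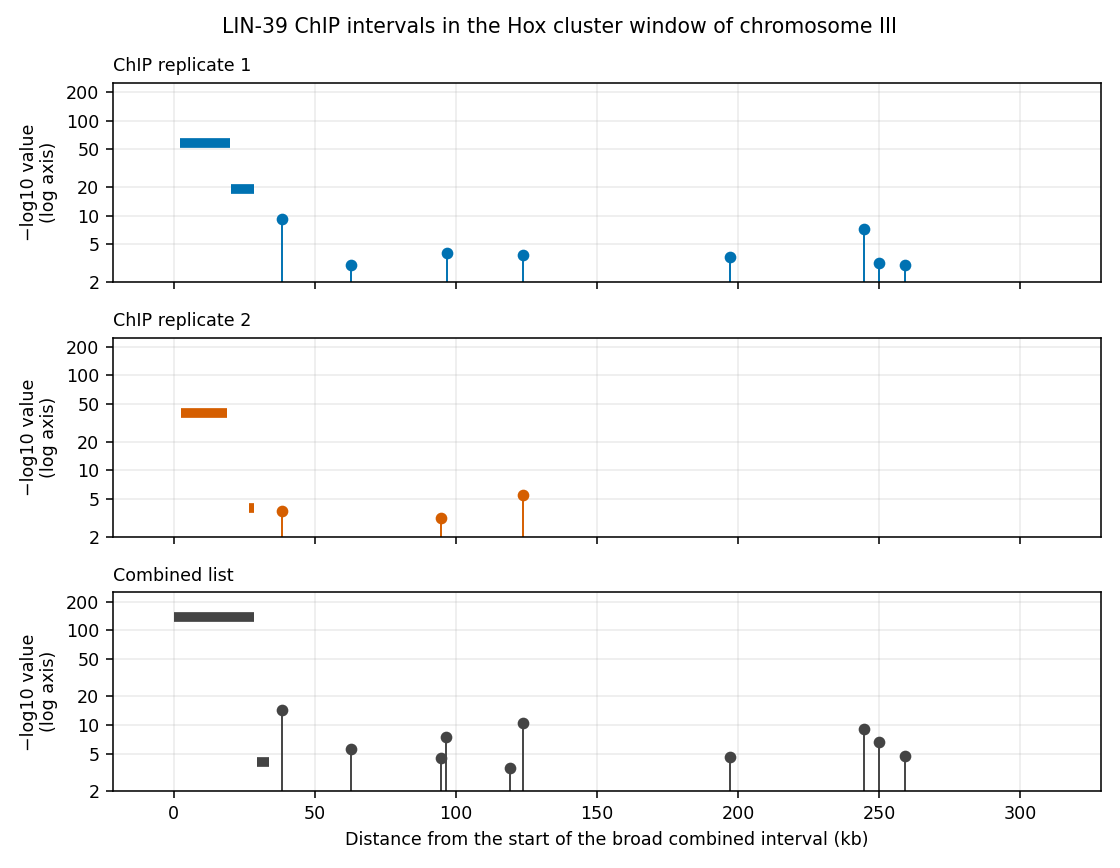
Intervals of ChIP replicate 1, ChIP replicate 2 and the combined list in the window, by distance in kb from the start of the broad combined interval (x axis) and −log10 of the authors' value (y axis, log scale). Narrow intervals are stems with points at their midpoint and intervals of 1577 bp or more are bars at their true length. The broad block lies at the left in each list, and replicate 2 has no interval to the right of the one that starts at 123.7 kb.

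The broad interval of the combined list ran from 7521404 to 7549814 and filled 8.12% of the window. Its value of 6.96e-140 was the smallest of all 8006 combined intervals. It was also the widest of them, 5.43 times the width of the next, which measured 5230 bp. The window was chosen with this interval taken as that of lin-39, and this assignment was not tested. Both replicates covered the region, but each with a pair of intervals in place of a single one.

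In replicate 1 the block was made of an interval of 17755 bp at 7523636 to 7541390, ranked 12 of 3541, and one of 8227 bp at 7541598 to 7549824, ranked 150. These were the widest and the next widest intervals of the whole replicate 1 list. The break between them measured 207 bp, close to the smallest gap of that list, 202 bp. Only 3 of the 3535 gaps in the replicate 1 list were of 207 bp or less.

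In replicate 2 the block was made of an interval of 16242 bp at 7524013 to 7540254, ranked 13 of 1743, and one of 1577 bp at 7548187 to 7549763, ranked 1095. The first was the widest interval of the replicate 2 list, and the second was 15th in width. The break between them measured 7932 bp, from 7540255 to 7548186. The break of replicate 1, at 7541391 to 7541597, lay inside it, so the stretch of the replicate 1 break was left out by both replicates.

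The edges of the block were not equally well shared. At the right edge the replicate 1 interval ended 10 bp beyond the combined interval, at 7549824, and the replicate 2 interval ended 51 bp before it, at 7549763. At the left edge the intervals started 2232 bp inside the combined interval in replicate 1 and 2609 bp inside it in replicate 2, at positions 377 bp from each other. Replicate 1 covered 91.4% of the combined interval and replicate 2 covered 62.7%. All 17819 bp covered by replicate 2 were also covered by replicate 1, and 2439 bp were covered by neither, of which 2232 bp lay at the left edge and 207 bp in the break of replicate 1.

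The authors' value differed along the block in both replicates. The left interval had a −log10 value of 58.1 and the right one of 19.04 in replicate 1. In replicate 2 the left interval was at 40.7 and the right one at 4.01. The left interval thus had the smaller value in each replicate. It was also the wider one, with 17755 against 8227 bp in replicate 1 and 16242 against 1577 bp in replicate 2. Whether width enters the value was not tested, so a stronger signal at the left is not shown. The right part stood near the top of replicate 1 (4.24% of the list ranked at or above it) and in the weaker part of replicate 2 (62.8%).

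**Figure D2:**
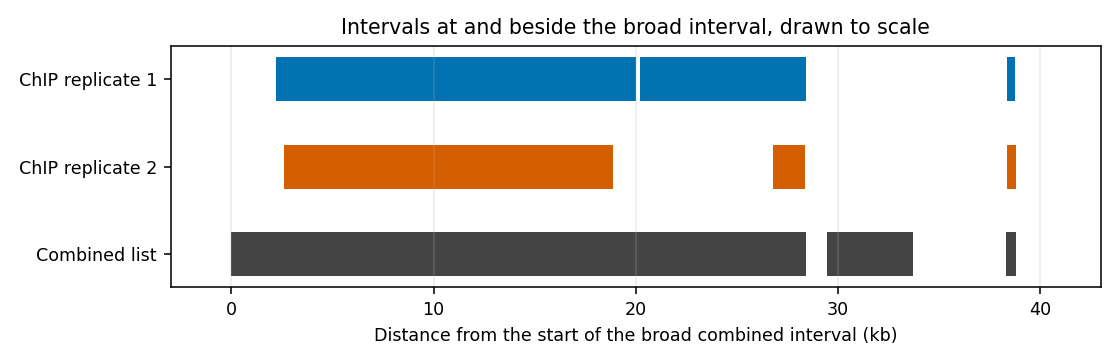
Intervals from the start of the broad combined interval to the first narrow interval shared by both replicates, drawn to scale by distance in kb (x axis) for each list (rows). Both replicates start 2232 and 2609 bp inside the combined interval and end within 51 bp of it, with a break of 207 bp in replicate 1 and of 7932 bp in replicate 2; the 4254 bp combined interval to the right has no counterpart in either replicate.

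A wide interval of the combined list lay 1044 bp to the right of the block, at 7550859 to 7555112. It is counted as narrow by the definition above, but with 4254 bp it was 4th in width of all 8006 combined intervals. Its value of 9.14e-05 ranked only 4531. It overlapped neither replicate list, and the nearest interval was 1034 bp away in replicate 1 and 1095 bp away in replicate 2. In both cases that was the right end of the block.

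This combination of width and value was compared with the other wide intervals of the combined list. Of the 6 combined intervals of at least 4000 bp, the other 5 overlapped both replicates and ranked 39 or better. Of the 44 of at least 2000 bp, 36 overlapped both replicates and 3 overlapped neither. The median rank of the 44 was 128, the interval beside the block had the weakest rank among them, and the next weakest was at 3562. No test was made of this difference, since each list is a single call.

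**Figure D3:**
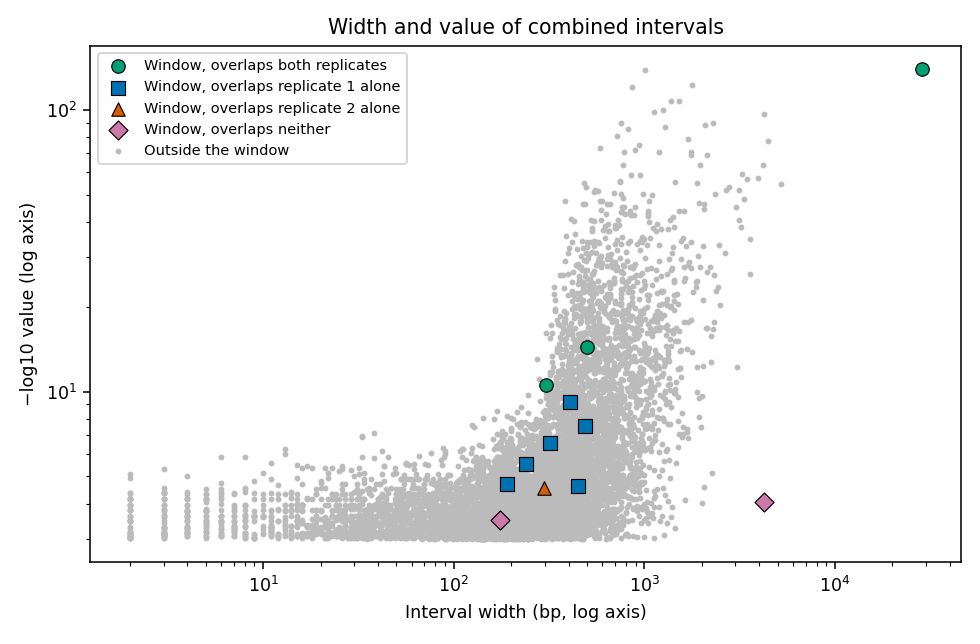
Width in bp (x axis, log scale) and −log10 of the authors' value (y axis, log scale) of all combined intervals, with the 12 window intervals marked by their overlap with the replicate lists and all others in grey. The broad interval lies at the top right and the 4254 bp interval at the lower right, away from the grey points, while the other 10 lie between 174 and 500 bp.

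Of the 11 narrow combined intervals, 2 overlapped both replicates (18.2%, exact Clopper-Pearson 95% interval 2.28 to 51.8%), against 15.7% of the whole combined list. With the broad one included, 3 of 12 in the window overlapped both (25%, 5.49 to 57.2%), against 17.5% on chromosome III outside the window (172 of 982, 15.2 to 20.04%). The interval for the window spans the share outside it, but neither a difference in support by both replicates nor its absence is shown by this. The 12 intervals include the broad one, which was known when the window was set, and each list is a single call. All exact intervals cover counting error only. Rank was not accounted for in these shares. In 5 equal groups of the combined list by value, strongest first, 73.4, 4.68, 0.437, 0.187 and 0% overlapped both replicates. The 2 shared narrow intervals ranked 676 and 1050 of 8006.

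The first narrow interval shared by both lay at 7559708 to 7560207, 38.3 kb from the start of the broad one. It was the strongest narrow interval of the combined list in the window, with a width of 500 bp, a value of 3.66e-15 and rank 676. Replicate 1 placed it at 7559741 to 7560148 (408 bp, value 7.41e-10, rank 568) and replicate 2 at 7559729 to 7560185 (457 bp, value 2.00e-04, rank 1257). The starts of the replicate intervals were 12 bp apart and the ends 37 bp apart.

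The other shared narrow interval lay at 7645058 to 7645361, with a width of 304 bp, a value of 2.80e-11 and rank 1050. Replicate 1 placed it at 7645095 to 7645312 (218 bp, value 1.42e-04, rank 2089) and replicate 2 at 7645104 to 7645370 (267 bp, value 3.28e-06, rank 716). Starts differed by 9 bp and ends by 58 bp. The order of the shared pair was not the same in the replicates. The interval at 7559708 was the stronger one in replicate 1, where it stood at 16.04% of the list and the interval at 7645058 at 58.99%. In replicate 2 the interval at 7559708 stood at 72.1% and that at 7645058 at 41.1%.

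Replicate 1 alone supported 6 of the 11 narrow combined intervals (54.5%, 23.4 to 83.3%), against 24.2% of the whole combined list. Over all 12 window intervals the share was 50.0% (21.1 to 78.9%), against 20.4% (17.9 to 23.02%) on chromosome III outside the window, and the exact intervals overlapped. That of the 11 narrow ones lay just above the interval of chromosome III outside the window, and no test was made. The comparison did not account for rank. In 5 equal groups of the combined list by value, strongest first, replicate 1 alone supported 22.8, 50.5, 28.8, 13.9 and 4.87%. The 6 window intervals ranked 1249 to 3537 of 8006. The strongest of the 6 was at 7765930 to 7766338 (409 bp, value 6.52e-10, rank 1249). Replicate 1 had it at 7765934 to 7766347, ranked 826, within 9 bp of the combined edges on either side. The nearest replicate 2 interval was 88043 bp away.

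Close by, the interval at 7771011 to 7771330 (320 bp, rank 1935) had a replicate 1 partner of 268 bp, ranked 3083. The interval at 7780506 to 7780694 (189 bp, rank 3432) had one of 100 bp, ranked 3368. The gaps between these 3 neighbours were 4672 and 9175 bp, and replicate 2 held none of them. The interval at 7718159 to 7718604 (446 bp, rank 3537) stood by itself, with gaps of 72797 bp before it and 47325 bp after it in the combined list. Its replicate 1 partner of 360 bp ranked 2324. The interval at 7584252 to 7584490 (239 bp, rank 2611) had a replicate 1 partner of 104 bp that ranked 3529, among the weakest of that list.

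A pair of combined intervals 1395 bp apart was divided between the replicates. The left one, at 7616147 to 7616443 (297 bp, value 2.91e-05, rank 3643), overlapped a replicate 2 interval of 265 bp, ranked 1623 of 1743, and no replicate 1 interval. The right one, at 7617839 to 7618328 (490 bp, value 2.88e-08, rank 1619), overlapped a replicate 1 interval of 297 bp, ranked 1879 of 3541, and no replicate 2 interval. The replicate intervals themselves were 1577 bp apart. The left interval was the only one of the 12 with support by replicate 2 alone (8.33%, 0.211 to 38.5%), against 4.72% of the whole combined list.

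Neither replicate supported 2 of the 12 (16.7%, 2.09 to 48.4%), against 55.4% of the whole combined list and 58.96% (55.8 to 62.06%) on chromosome III outside the window. The exact intervals of the window and of chromosome III outside it did not overlap, but this shows no difference. The 12 include the broad one, known when the window was set, and each list is a single call. The window intervals also had stronger ranks, and no test was made. The unsupported ones were the 4254 bp interval beside the block and an interval of 174 bp at 7640666 to 7640839, which had the weakest rank of the 12, 5961. Lack of support was common at these ranks. With the combined list divided into 5 equal groups by value, 66.02% of the group that holds the 4254 bp interval and 84.1% of the group that holds the 174 bp interval overlapped neither replicate. Over the 5 groups this share rose from 0.437% in the strongest to 93.6% in the weakest.

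Read from the replicates, 4 of the 10 replicate 1 intervals in the window overlapped replicate 2 (40.0%, 12.2 to 73.8%), against 36.2% of the whole replicate 1 list. Conversely, 4 of the 5 replicate 2 intervals overlapped replicate 1 (80.0%, 28.4 to 99.5%), against 73.8% of the whole replicate 2 list. Among narrow intervals alone, 2 of 8 replicate 1 intervals overlapped replicate 2 and 2 of 3 replicate 2 intervals overlapped replicate 1. The overlap rule mattered for the broad intervals. With midpoints within 200 bp, 2 of 10 and 2 of 5 window intervals were shared. The broad pairs dropped out, with midpoints 11.109 and 24.307 kb from the broad combined start in replicate 1. Those of replicate 2 were at 10.7295 and 27.571 kb. Support of narrow combined intervals by both replicates stayed at 2 of 11. No share of the whole lists was taken under this rule. All 10 replicate 1 intervals (90.7% in the whole list) and all 5 replicate 2 intervals (95.5%) overlapped the combined list. Among 11 pairs of a narrow combined interval and its replicate partner, the starts differed by 1 to 179 bp (median 37 bp) and the ends by 2 to 90 bp (median 21 bp). The replicate interval was the narrower one in 10 of the 11.

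**Figure D4:**
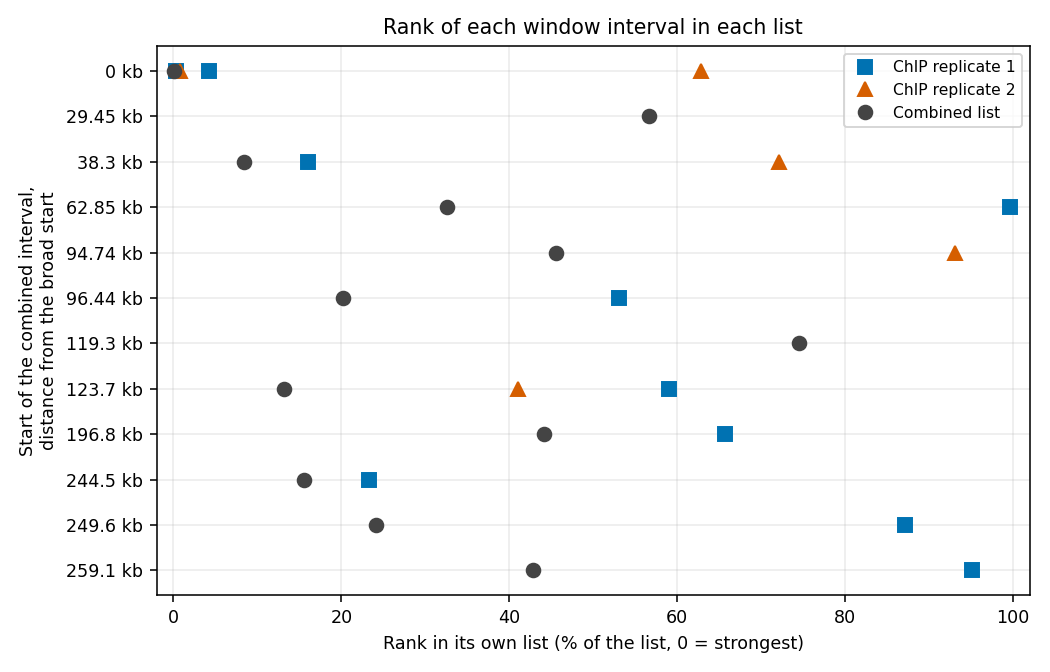
Rank of each combined window interval and of its replicate partners as a percentage of their own list (x axis, 0 is the strongest), by distance in kb of the combined start from the start of the broad interval (rows, left to right along the chromosome). A missing symbol means that the list had no overlapping interval; the broad interval has a pair of partners in each replicate. Of the 11 narrow intervals, 9 stood in the stronger 50% of the combined list. Of the replicate partners, 2 of 8 and 1 of 3 stood in the stronger 50% of replicates 1 and 2. These shares cannot be compared between lists, which hold 8006, 3541 and 1743 intervals. Combined intervals without a partner lie mostly in the weaker part of their list.

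Apart from the 4254 bp one, the narrow combined intervals were 174 to 500 bp wide. The median over all 11 was 320 bp, against 287 bp for all combined intervals. The 8 narrow replicate 1 intervals ran from 100 to 414 bp with a median of 282.5 bp, against 372 bp for that whole list. The 3 narrow replicate 2 intervals measured 265, 267 and 457 bp, against a median of 430 bp for that whole list. In the combined list 10 of the 12 window intervals stood in the stronger 50%, against 517 of 982 (52.6%) on chromosome III outside the window. None of the 12 was under 50 bp, which allows a share of up to 25% (3 counts of 12), against 102 of 982 (10.4%) outside.

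Members were spread unevenly along the window. Of its 7 segments of 50 kb, the third, from 7600000 to 7650000, held 4 combined intervals, and the fourth and the seventh held 0 in every list. The longest empty stretches between combined intervals were 73610 bp, from 7780695 to 7854304, and 72797 bp, from 7645362 to 7718158. They ranked 14 and 16 in length among the 993 gaps of the combined list on chromosome III, whose median was 7318 bp. The first of them reached beyond the window, of which it left the last 69306 bp empty. Replicate 2 had no interval from 7645371 to 7854381, a gap of 209011 bp that ranked 8 among its 219 gaps on the chromosome. Replicate 1 and the combined list each held 4 intervals in the part of that stretch inside the window.

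The window was covered mostly by its broad interval. Combined intervals covered 36033 bp of it (10.3%), against 2.75% of chromosome III outside the window. Without the broad interval and its length, the remaining 7622 bp made 2.37% of the window. Of these, 4254 bp were the single interval beside the block, which overlapped neither replicate. In replicate 1 the window was covered at 8.04%, against 1.31% outside, and at 0.674% without the broad intervals. In replicate 2 it was covered at 5.37%, against 0.778% outside, and at 0.308% without them. The length left out was that of the broad combined interval in every list. The window, 2.54% of the extent of chromosome III, thus held 8.90%, 13.8% and 15.3% of the bases covered on that chromosome in the combined list, replicate 1 and replicate 2.

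By number, the window was not rich in intervals. There were 3.43 combined intervals per 100 kb in it, against 7.32 on chromosome III outside it, a ratio of 0.469. The ratio was 0.928 in replicate 1 (2.86 against 3.08 per 100 kb) and 0.892 in replicate 2 (1.43 against 1.60). The broad block counts as 1 interval in the combined list but as 2 in each replicate, which raises the replicate ratios. Without the block and the length of the broad combined interval, the window held 3.42 combined intervals per 100 kb. In the same way it held 2.49 in replicate 1 and 0.933 in replicate 2. The lower number was most marked in the combined list with and without the block. No test was made of it.

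**Figure D5:**
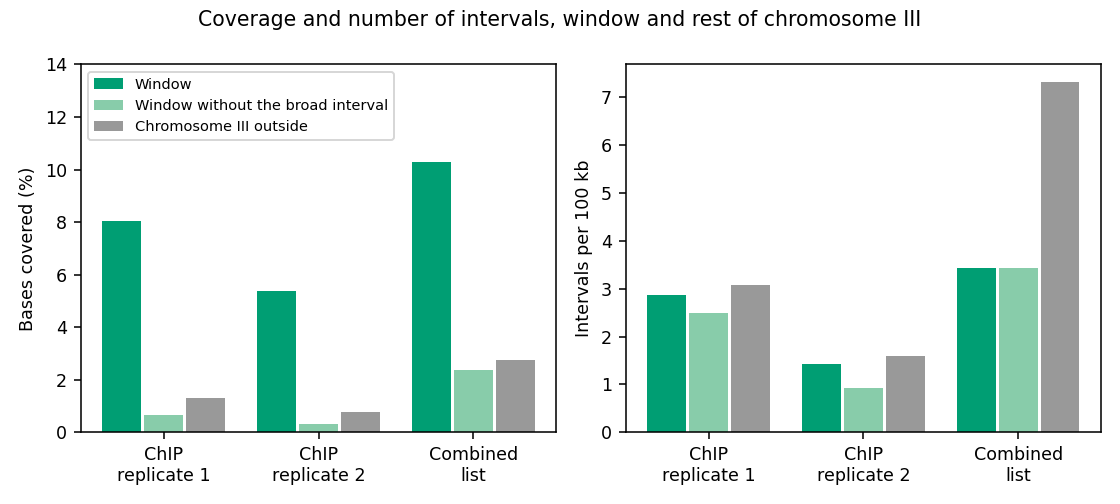
Bases covered in percent (left) and intervals per 100 kb (right) in the window, in the window without the broad intervals, and on chromosome III outside the window, for each list. Without the broad intervals, the length left out was the 28411 bp of the broad combined interval in every list. Coverage of the window exceeds that outside it in every list and falls below it once the broad intervals are left out.

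No combined member lay close to the edges of the window: the first was the broad interval, 21.4 kb from the left edge, and the last was that of 189 bp at 7780506. Just outside on the left lay combined intervals at 7498326 to 7498758 (433 bp, rank 1221, overlapping both replicates) and at 7499442 to 7499754 (313 bp, rank 1270, overlapping replicate 1 alone). Just outside on the right, the interval at 7854305 to 7855007 (703 bp, value 7.96e-40, rank 95) was stronger than every narrow member. It overlapped replicate 1 at rank 94 and replicate 2 at rank 59.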

How the data were processed

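The members, gene names and alternatives were chosen with earlier results of these data known. Per the file headers, positions are on WormBase WS220. The interval caller was PeakSeq, per the source field of each line. For each interval the authors deposited 1 significance value, and the files do not state whether it is a p-value or a q-value. Not given in the sources used here are the aligner, the PeakSeq settings, and whether input libraries or pooled reads entered the calls. The smallest gap between neighbours was 202 bp in replicate 1 and 224 bp in replicate 2, so closer regions may stand as 1 interval.

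Samples were grouped by title into 2 ChIP and 2 input libraries. Intervals were called shared from 1 bp of overlap. Broad meant a combined interval of at least 10000 bp and the replicate intervals that overlap it. Shares have exact Clopper-Pearson 95% intervals, which cover counting error only, and for a count of 0 the limit given is 3 counts of the total. The extent of chromosome III was taken as the largest interval end in any list. No test between groups was made, since the files used hold only interval lists of the ChIP libraries, with 1 list for each. The naming rule took the 4 Hox genes of the window, nob-1, php-3, unc-119, the broad interval, combined intervals shared by both replicates, and the strongest 5 and widest 5 narrow intervals of each list. Those at 7584252, 7616147, 7640666 and 7780506 in the combined list, and those just outside the window, were added to account for every member and for its edges. Proteins, promoters and motifs of the Hox genes were not analysed here. Alternatives were other overlap rules, window edges and thresholds, and lists left out. Overlap counting was tested on simulated data. Python 3.11.15 with numpy 2.4.6, pandas 2.3.3, scipy 1.17.1 and matplotlib 3.10.9 was used.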

Additional observations from a re-analysis of the deposited data

How the results depend on the processing

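Of 42 alternatives, 30 stayed equal to the value given, within its exact 95% interval or, for numbers of intervals and their ratio, within 1.5 times. The 30 include window edges narrowed by 25 kb or set by touch of 1 bp, which changed no member. They also include a fall from 80% to 40% of replicate 2 intervals shared, with midpoints within 200 bp. Its exact interval was wide, 28.4 to 99.5%. The number 30 is thus not a measure of robustness. For the changes that follow, the cause was not tested, except where ranks are given. In the stronger 50% of each list, the window held 4 replicate 1 and 2 replicate 2 intervals, combined intervals covered 31605 bp, the ratio of intervals per 100 kb was 0.742, and 0 of 9 narrow combined intervals overlapped both replicates (0%, which allows up to 33.3%, or 3 counts of 9). In the same lists 1 of 4 replicate 1 and 1 of 2 replicate 2 intervals overlapped the other replicate. No whole-list share was taken with the lists cut in this way, so it is not known if such low counts are particular to the window. Combined intervals covered 37688 bp with the window widened by 25 kb at each end and 7622 bp without the broad interval. The ratio of intervals per 100 kb was 0.928 for replicate 1 and 0.892 for replicate 2, with the broad block counted as 2 intervals in each. With intervals from 2000 bp counted as broad, the median narrow width was 312 bp. With 1 replicate left out, the share of narrow combined intervals supported was 27.3% (by replicate 2) to 72.7% (by replicate 1), and coverage of the broad interval was 62.7% (replicate 2) to 91.4% (replicate 1). Merging neighbours within 1500 bp, chosen after seeing the data, left 10 combined intervals. No paired analysis was possible because no interval list of an input library was analysed here and no result comes from a test. Depth is unknown, so an interval missing from 1 list cannot be called absent from that library.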
